A study of Homo sapiens with 76 samples.

Results

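C12orf5 (current symbol TIGAR), PRKAB1 and PRKAB2 are the 3 genes of energy and glucose metabolism described here, taken by name from the 61 panel genes of the quantification cycle (Cq) table. They were measured by TaqMan RT-qPCR in TK6, a line of human B lymphoblasts that keeps functional p53, after exposure to 28 agents in 29 treatments, all labelled 4 h. Each treatment was labelled DNA damage-inducing (DDI, 14 treatments) or non-DDI (15 treatments), and each of the 29 treatments and 9 vehicle conditions had 2 replicates, which gave 76 samples. The question put to each gene was whether its mRNA differed between treated cells and cells that received only the solvent, and whether that difference separated the classes. The panel had been selected in earlier work with the same agents for separating these classes, so the direction of the class difference is not independent evidence.

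The DDI treatments set against the H2O vehicle were potassium chromate (100 µM), cadmium chloride (50 µM), bleomycin (10 µg/mL), AraC (50 µM), hydroxyurea (0.5 mM) and H2O2 (80 µM), and the non-DDI agent 2-deoxyglucose (2-DG), shared that vehicle. The dose of 2-DG is given as 20 µM in the labels, and whether that unit is right could not be checked in these files. The DMSO vehicle served the DDI agents camptothecin (125 nM), etoposide (200 nM), 5-fluorouracil (5-FU, 25 µg/mL) and cisplatin (80 µM). It also served the non-DDI agents docetaxel (50 nM), paclitaxel (50 nM), vinblastine (200 ng/mL), trichostatin A (20 ng/mL), apicidin (1 µg/mL) and oxamflatin (1 µM). Medium alone was the control for gamma rays (4 Gy, DDI) and for the non-DDI treatments heat shock (47 °C) and ethanol at 2% and 4%. Per the study, the heat itself lasted 20 min. The ethanol vehicle (EtOH) served colchicine (250 ng/mL), antimycin A (100 µM) and tunicamycin (2.5 µg/mL), all non-DDI. The non-DDI agents HC toxin (20 ng/mL) and thapsigargin (250 nM) were set against methanol (MeOH) and acetonitrile. Of the remaining DDI agents, methotrexate (100 µM) was set against NaOH, and methyl methanesulfonate (MMS, 40 µg/mL) and sodium arsenite (20 µM) against a methanol and a water control of their own. Per the study's methods, doses were picked for a strong response of indicator genes that included CDKN1A and GADD45A, so the size of a damage response at these doses is in part a matter of selection.

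TIGAR is a phosphatase that lowers fructose-2,6-bisphosphate, slows glycolysis and turns glucose towards the pentose phosphate pathway, which supplies NADPH and nucleotide precursors. PRKAB1 and PRKAB2 encode the alternative beta subunits of AMP-activated protein kinase (AMPK), the energy sensor of the cell: the beta subunit holds the catalytic alpha and the nucleotide-binding gamma subunit together and carries a glycogen-binding module. TIGAR was named for its induction by p53, and PRKAB1 is also known as a p53 target, so both connect the DNA damage response with energy supply. No gene of an AMPK alpha or gamma subunit was among the genes analysed here.

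In the RefSeq annotation of GRCh38.p14, TIGAR (gene ID 57103) lies on chromosome 12 from 4321213 to 4360028, PRKAB1 (5564) on chromosome 12 from 119667952 to 119681619 and PRKAB2 (5565) on chromosome 1 from 147155106 to 147172470. All 3 genes were found in the RefSeq promoter table of that build, and the windows are shown because the mRNAs of the 3 genes moved together in most DDI treatments. Each window of 300 bases runs from 250 bases before to 50 bases after the start site set in that table, which for PRKAB1 lies 181 bases past the gene's first annotated base. The windows lie at chr12:4320963-4321262 on the plus strand for C12orf5, chr12:119667883-119668182 on the plus strand for PRKAB1 and chr1:147172421-147172720 on the minus strand for PRKAB2. Capitals mark the GC box GGGCGG and the ETS core CGGAAG on either strand.
C12orf5: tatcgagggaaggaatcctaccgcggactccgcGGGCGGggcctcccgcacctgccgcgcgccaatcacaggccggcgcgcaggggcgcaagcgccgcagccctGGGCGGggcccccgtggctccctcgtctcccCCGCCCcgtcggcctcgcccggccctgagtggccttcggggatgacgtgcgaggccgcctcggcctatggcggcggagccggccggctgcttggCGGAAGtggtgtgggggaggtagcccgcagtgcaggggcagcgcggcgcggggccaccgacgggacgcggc
PRKAB1: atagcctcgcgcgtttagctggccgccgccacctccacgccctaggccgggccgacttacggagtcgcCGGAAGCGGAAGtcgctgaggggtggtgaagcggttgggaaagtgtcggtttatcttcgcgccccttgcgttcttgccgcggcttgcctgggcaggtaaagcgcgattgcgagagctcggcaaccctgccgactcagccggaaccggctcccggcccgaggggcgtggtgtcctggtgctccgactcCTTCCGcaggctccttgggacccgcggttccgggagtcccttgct
PRKAB2: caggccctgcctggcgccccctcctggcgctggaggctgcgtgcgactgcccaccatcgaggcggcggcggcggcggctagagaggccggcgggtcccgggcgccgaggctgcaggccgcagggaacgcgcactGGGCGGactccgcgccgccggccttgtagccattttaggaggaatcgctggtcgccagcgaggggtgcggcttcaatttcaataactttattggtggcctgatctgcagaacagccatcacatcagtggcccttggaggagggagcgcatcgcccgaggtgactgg

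The C12orf5 window held 3 GC boxes and 1 ETS core, the PRKAB1 window no GC box and 3 ETS cores, and the PRKAB2 window 1 GC box and no ETS core. Over all 35116 windows of the table, 45% held a GC box and 19.5% an ETS core. The CCAAT box (CCAAT) was found once in the C12orf5 window and once in the PRKAB2 window and occurs in 34.6% of all windows, and the core TGACGT of the cAMP response element was found once in the C12orf5 window, with 7.98% of all windows holding it. The decamer of the p53 response element, present in 6.63% of all windows, was in none of the 3, which concerns these letters in these windows alone. The sequences were 78%, 67.7% and 68.7% G and C for C12orf5, PRKAB1 and PRKAB2, against a median of 58.7% over the table. Motifs were searched on both strands, and 2 of the 3 ETS cores of the PRKAB1 window lie next to each other.

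No Cq of the 3 genes was missing over the 76 samples. Cq ran from 23.85 to 27.39 cycles for C12orf5 (median 25.64), from 24.4 to 27.72 for PRKAB1 (median 26.4) and from 26.81 to 29.71 for PRKAB2 (median 28.38). The level used from here on is -ΔCq, the mean Cq of the reference genes HPRT and GUSB minus the Cq of the gene, on which a rise of 1 stands for about a doubling of mRNA. Levels were compared between conditions for 1 gene at a time and not between genes, since assays differ in efficiency. The SD between replicates of a condition was 0.21 for C12orf5, 0.19 for PRKAB1 and 0.18 for PRKAB2 on the -ΔCq scale, near the median of 0.20 over the panel. C12orf5 and PRKAB1 each had more than 1 assay on the array and the table keeps 1 value per gene, with the assay kept not given in the sources used here. Per the study's supplement, the choice among assays rested on how the biomarker performed, and the part of this choice in the class separation of C12orf5 and PRKAB1 was not tested. In bulk samples a lower share of cells expressing a gene and less mRNA per cell cannot be told apart.

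HPRT and GUSB had mean Cq values of 22.9 ± 0.301 and 24.2 ± 0.329 (SD, n = 76). TNFRSF17, a receptor of late B-lineage cells, had Cq values from 26.91 to 30.12, and ACTA2, a smooth muscle actin, from 25.73 to 28, so neither separates the labelled cell type from another here. Some Cq values were equal to the last digit between conditions: DMSO and medium shared replicate 2 values for C12orf5 and PRKAB1 among 11 of 61 genes, and EtOH and acetonitrile shared 50 of 61 genes in each replicate. MeOH shared 19 of 61 replicate 1 values with both. For PRKAB2, the EtOH and MeOH vehicles equalled acetonitrile in Cq in replicate 1, and EtOH equalled it in replicate 2, with the levels differing only through the reference genes.

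The vehicle conditions, which held no agent, differed from each other in all 3 genes. In the H2O vehicle, the -ΔCq of C12orf5 was -3.93 and -3.22, and that of PRKAB1 was -3.82 and -4.10. The other 8 vehicle conditions gave C12orf5 means from -2.59 to -1.70 and PRKAB1 means from -3.30 to -2.73, above both H2O replicates of each gene. Against the mean of the 8 other vehicles, the H2O vehicle was lower by -1.33 for C12orf5 (SE 0.15, adjusted p = 5.9e-10) and by -0.90 for PRKAB1 (SE 0.14, adjusted p = 8.16e-07), and -0.20 for PRKAB2 (SE 0.13, adjusted p = 0.162). In that comparison 70.5% of the panel genes were called, so C12orf5 and PRKAB1 were in the majority.

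**Figure D1:**
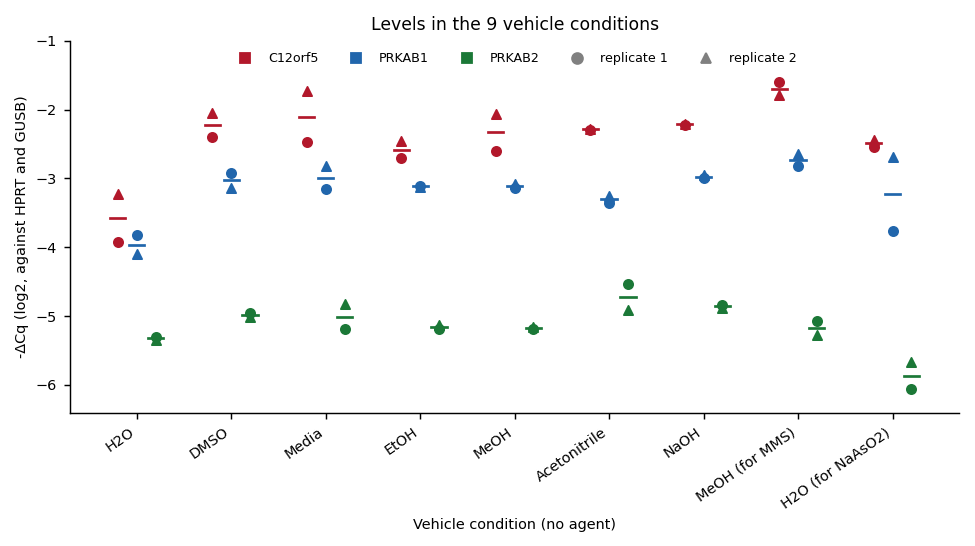
-ΔCq (log2 scale, against the mean of HPRT and GUSB) of C12orf5, PRKAB1 and PRKAB2 in the 9 vehicle conditions, with circles for replicate 1, triangles for replicate 2 and short lines for means. C12orf5 and PRKAB1 were lowest in the H2O vehicle (means -3.58 and -3.96), and PRKAB2 in the separate water control of sodium arsenite (mean -5.87).

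PRKAB2 stood apart in another water control. In the H2O (for NaAsO2) vehicle its -ΔCq was -6.07 and -5.67, -0.82 relative to the 8 others (SE 0.13, adjusted p = 3.44e-06), while both replicates of every other vehicle were at or above -5.34. PRKAB1 differed by more between the replicates of that vehicle, -3.77 and -2.69, than in any other. C12orf5 and PRKAB1 were highest in the MeOH (for MMS) vehicle, where C12orf5 lay at -1.61 and -1.79 (+0.78 relative to the 8 others, adjusted p = 9.78e-05) and PRKAB1 at -2.83 and -2.64 (+0.48, adjusted p = 0.00647). PRKAB2 was highest in acetonitrile, at -4.54 and -4.91 (+0.47, adjusted p = 0.00572). Its Cq there equalled that of EtOH in each replicate, so the levels of these vehicles differ only through HPRT and GUSB. Over the 9 vehicles, 28.4% of all comparisons of a panel gene were called. How far these vehicle differences enter the fold changes was measured by setting each treatment against the other vehicles too.

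Against their own vehicles, C12orf5 was called higher in 17 of 29 treatments, PRKAB1 in 15 and PRKAB2 in 12 (limma, adjusted p under 0.05), against 29.8% of all 1769 tests of a panel gene. In the DDI class C12orf5 rose in 13 of 14 treatments, PRKAB1 in 13 and PRKAB2 in 10, where 46.5% of all panel tests were called higher. In the non-DDI class C12orf5 rose in 4 of 15, PRKAB1 in 2 and PRKAB2 in 2, where that share was 14.2%. Lower calls made up 13.5% of all tests and came to 1 for C12orf5 (thapsigargin) and 1 for PRKAB2 (cadmium chloride). PRKAB1 was not called lower in any treatment, nor at an unadjusted p under 0.05, where its count was 0 of 29. All 3 genes were higher in 10 of 14 DDI treatments and in 0 of 15 non-DDI treatments, the same counts as at an unadjusted p. Against the mean of the 8 other vehicles these counts were 9 of 14 and 1 of 15, the 1 being ethanol at 2%. Treatments with a common vehicle share its 2 samples, so their values are not independent of each other.

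**Figure D2:**
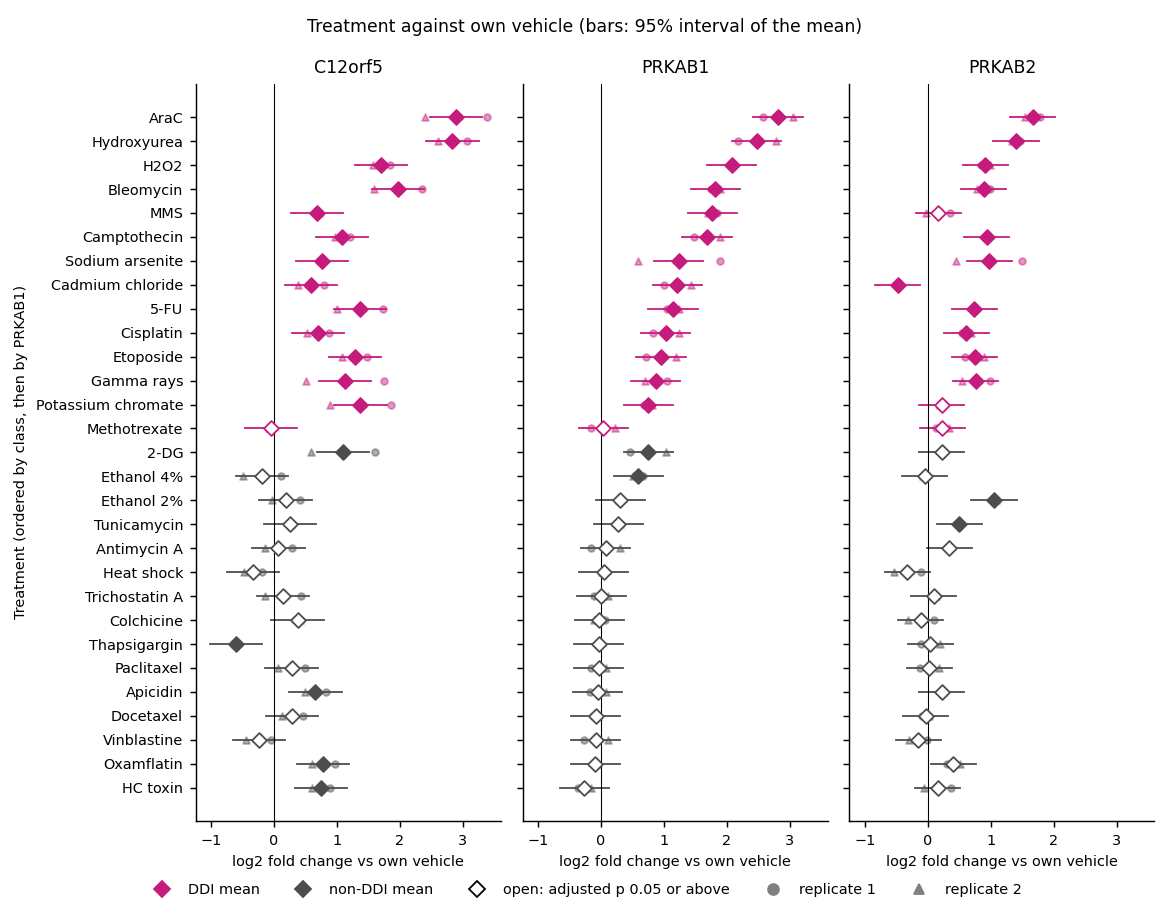
log2 fold change against the own vehicle for C12orf5, PRKAB1 and PRKAB2 in 29 treatments, with diamonds for the mean, bars for its 95% interval, small circles and triangles for replicates 1 and 2 paired by number, and open diamonds where the adjusted p was 0.05 or above. For PRKAB1, 13 of 14 DDI treatments are called higher, and the non-DDI median is -0.03.

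The median log2 fold change over DDI treatments was 1.21 for C12orf5, 1.22 for PRKAB1 and 0.76 for PRKAB2, and over non-DDI treatments 0.25, -0.03 and 0.09. Mean log2 fold changes of C12orf5 were 1.31 ± 0.83 (SD, n = 14) and 0.23 ± 0.46 (SD, n = 15), a class difference of 1.07 (SE 0.24, adjusted p = 0.000266). PRKAB1 averaged 1.42 ± 0.74 in the DDI class and 0.09 ± 0.27 in the non-DDI class, a difference of 1.33 (SE 0.21, adjusted p = 4.69e-06). PRKAB2 averaged 0.70 ± 0.54 and 0.16 ± 0.33, a difference of 0.54 (SE 0.18, adjusted p = 0.00711), which was 0.36 and not called with each treatment set against the 8 other vehicles (adjusted p = 0.0641). By size of the difference PRKAB1 ranked 11, C12orf5 22 and PRKAB2 47 of the 61 panel genes, of which 57.4% were called higher in the DDI class. The median difference over the panel was 0.60, so PRKAB2 lay below it.

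Two-sided permutation of the class labels over treatments (100000 draws) gave p = 5e-05 for C12orf5, 1e-05 for PRKAB1, the smallest these draws can give, and 0.00276 for PRKAB2. Treatments share vehicle samples and 6 of the 7 treatments of the H2O vehicle were DDI, so these p-values and the limma ones of the class comparison are too small, and class and vehicle are in part confounded. Within the DMSO vehicle, with 4 DDI and 6 non-DDI agents, the class difference was 0.79 for C12orf5, 1.26 for PRKAB1 and 0.67 for PRKAB2. The DMSO agents of the classes did not overlap in PRKAB1 (DDI 0.96 to 1.69, non-DDI -0.09 to 0.00) or PRKAB2 (DDI 0.62 to 0.94, non-DDI -0.15 to 0.40), and overlapped in C12orf5 (DDI 0.70 to 1.36, non-DDI -0.24 to 0.78). Exact two-sided permutation p-values were 0.0143 for C12orf5 and 0.00476 for PRKAB1 and PRKAB2, the smallest this design allows, and in limma 63.9% of panel genes were called. Without the 7 treatments of the H2O vehicle, an alternative added after the data were seen, the difference was 0.70 for C12orf5 (SE 0.19, adjusted p = 0.00306), 1.05 for PRKAB1 (adjusted p = 2.03e-05) and 0.49 for PRKAB2 (adjusted p = 0.00883). With repeated Cq values left out, 9 DDI and 6 non-DDI treatments remained for C12orf5 (1.09, adjusted p = 0.0485) and PRKAB1 (1.45, adjusted p = 0.0169). For PRKAB2, 14 and 10 remained (0.55, adjusted p = 0.0247). When the panel median replaced HPRT and GUSB as reference, DDI fold changes shifted by -0.44 on average and those of the non-DDI class by 0.07. On that scale the class difference of PRKAB2 was 0.03 (adjusted p = 0.868), and those of C12orf5 and PRKAB1 were 0.57 and 0.82, both called. That reference itself carries the class difference, since 57.4% of the panel genes were called higher in the DDI class, with a panel median of 0.60. A value near 0 there places PRKAB2 near the typical panel gene and cannot decide whether it responded.

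AraC, a cytidine analog that blocks DNA synthesis, and hydroxyurea, an inhibitor of ribonucleotide reductase, gave the highest fold changes of C12orf5 and PRKAB1 against the own vehicle. With AraC the -ΔCq of C12orf5 was -0.55 and -0.83, against -3.93 and -3.22 in H2O, a log2 fold change of 2.89 (7.40-fold, SE 0.21, adjusted p = 2.17e-16). PRKAB1 was at -1.24 and -1.06 with AraC, 2.81 above H2O (SE 0.19, adjusted p = 7.3e-17). PRKAB2 was at -3.51 and -3.80, against -5.30 and -5.34 in H2O, 1.67 higher (SE 0.18, adjusted p = 2.05e-11). All AraC replicates lay above all H2O replicates in each gene. Hydroxyurea gave log2 fold changes of 2.83 for C12orf5, 2.48 for PRKAB1 and 1.40 for PRKAB2. AraC called 82% of the panel genes and hydroxyurea 82%, so calls of these 3 genes were the common case. Against the mean of the 8 other vehicles, the AraC values were 1.55, 1.91 and 1.47 and the hydroxyurea values 1.498, 1.58 and 1.20, all called. The order changed on that scale. MMS gave the highest PRKAB1 value (2.25), and camptothecin (1.83) was above hydroxyurea. For C12orf5, 5-FU (1.54) was above hydroxyurea.

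Bleomycin, which cleaves DNA strands, and the oxidant H2O2 raised all 3 genes. The log2 fold changes with bleomycin were 1.97 for C12orf5, 1.82 for PRKAB1 and 0.89 for PRKAB2, with 65.6% of the panel called. With H2O2 they were 1.70, 2.08 and 0.92, with 73.8% called. For PRKAB1 under H2O2 the fold changes paired by replicate number were close, at 2.10 and 2.07. The levels themselves were -1.73 and -2.04 with H2O2 and -3.82 and -4.10 in the vehicle. Set against the 8 other vehicles, bleomycin gave 0.64, 0.91 and 0.69 and H2O2 0.37, 1.18 and 0.71, each still called higher.

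Chromate and cadmium, metal salts of the same vehicle, gave values that turned on the control. Chromate raised C12orf5 by 1.37 (adjusted p = 4.12e-07) and PRKAB1 by 0.75 (adjusted p = 0.00134) relative to H2O, and PRKAB2 was at 0.22 (adjusted p = 0.293), with 49.2% of the panel called. Relative to the 8 other vehicles the chromate values were 0.04, -0.15 and 0.02, and none was called. Cadmium raised PRKAB1 and lowered PRKAB2 against either control. The PRKAB1 level with cadmium was -2.82 and -2.68, 1.21 above H2O (adjusted p = 1.07e-06) and 0.31 above the 8 other vehicles (adjusted p = 0.045). The PRKAB2 level was -5.78 and -5.81, below both H2O replicates, with -0.47 against H2O (adjusted p = 0.0222) and -0.68 against the 8 others (adjusted p = 3.16e-05). C12orf5 turned direction, at 0.58 against H2O (adjusted p = 0.0159) and -0.75 against the others (adjusted p = 4.58e-05), with 54.1% of the panel called against H2O. The cadmium call of C12orf5 was lost without treated replicate 2 (0.44) or vehicle replicate 1 (0.23) and grew to 0.94 without vehicle replicate 2, and the PRKAB2 call was lost when any of the 4 samples was left out (-0.49 to -0.45).

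The DDI agents in DMSO raised all 3 genes. Camptothecin and etoposide poison topoisomerases, 5-FU disturbs thymidylate supply and cisplatin crosslinks DNA. With camptothecin the PRKAB1 level was -1.44 and -1.25, against -2.92 and -3.14 in DMSO, which was 1.69 higher (SE 0.19, adjusted p = 2.9e-10), while C12orf5 was 1.09 higher (adjusted p = 1.11e-05) and PRKAB2 0.94 higher (adjusted p = 1.08e-05). Etoposide gave 1.28 for C12orf5, 0.96 for PRKAB1 and 0.75 for PRKAB2, and 5-FU gave 1.36, 1.15 and 0.74. The replicates of each agent were above those of DMSO in each gene. Cisplatin gave the lowest of these values for C12orf5 (0.70) and PRKAB2 (0.62), with PRKAB1 at 1.03. The share of panel genes called was 68.9% with camptothecin, 65.6% with etoposide, 63.9% with 5-FU and 49.2% with cisplatin. Without DMSO replicate 1, C12orf5 under cisplatin was at 0.53 and no longer called (adjusted p = 0.0804).

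Gamma rays raised C12orf5 from -2.47 and -1.74 in medium to -0.73 and -1.22, a log2 fold change of 1.13 (SE 0.21, adjusted p = 7.99e-06). Paired by replicate number the values were 1.75 and 0.52, so they differed by more than the standard error, while all treated values were above those of medium. PRKAB1 rose by 0.87 (adjusted p = 0.000132) and PRKAB2 by 0.77 (adjusted p = 0.000207), and 70.5% of the panel was called. The medium replicate 2 Cq values of C12orf5 and PRKAB1 equal those of DMSO.

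MMS, a DNA methylating agent, gave a large rise of PRKAB1 next to a small one of C12orf5. PRKAB1 rose from -2.83 and -2.64 to -0.99 and -0.94, 1.77 in log2 fold change (SE 0.19, adjusted p = 1.13e-10). C12orf5 rose from -1.61 and -1.79 to -0.96 and -1.08, by 0.68 (SE 0.21, adjusted p = 0.00423). PRKAB2 was at -4.73 and -5.29 with MMS and -5.08 and -5.27 without, groups that overlap (0.17, adjusted p = 0.427). Its methanol control had the highest C12orf5 level of the vehicles, and against the 8 others MMS gave 1.46 for C12orf5, 2.25 for PRKAB1 and 0.13 for PRKAB2. MMS called 63.9% of the panel.

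Sodium arsenite raised all 3 genes against its own water control, with replicates that disagreed. The -ΔCq of PRKAB1 was -1.88 and -2.10 with arsenite and -3.77 and -2.69 in the control, which gave 1.24 (adjusted p = 5.23e-07) from paired values of 1.89 and 0.59. PRKAB2 was at -4.56 and -5.22 with arsenite and -6.07 and -5.67 in the control, 0.98 higher (adjusted p = 7.18e-06) from paired values of 1.51 and 0.45. C12orf5 was even between replicates, at 0.78 and 0.75 (mean 0.76, adjusted p = 0.00143). The arsenite call share was 63.9% of the panel. PRKAB1 was at 0.70 without control replicate 1 and PRKAB2 at 0.65 without treated replicate 1, both still called. Against the 8 other vehicles PRKAB1 was 1.16 higher and C12orf5 0.65 higher (both called), but PRKAB2 was 0.16 (adjusted p = 0.353). HPRT and GUSB also lay farther apart with arsenite (2.17 cycles) than in any other condition, and C12orf5 was 0.38 with HPRT alone as reference (adjusted p = 0.172).

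Methotrexate, a folate antagonist, was the DDI treatment in which none of the 3 genes was called, nor was any at an unadjusted p under 0.05. C12orf5 was at -2.24 and -2.28 with methotrexate and -2.22 and -2.21 in NaOH. The log2 fold changes were -0.05 for C12orf5 (95% interval -0.46 to 0.37), 0.04 for PRKAB1 (-0.35 to 0.42) and 0.23 for PRKAB2 (-0.13 to 0.59). Few genes were called in this treatment in all, 6.56% of the panel. Against the 8 other vehicles PRKAB2 was 0.55 higher (adjusted p = 0.00156).

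2-DG, a glucose analog that blocks the first steps of glycolysis, was called higher for C12orf5 and PRKAB1 against its own vehicle alone. C12orf5 was at -2.32 and -2.63 with 2-DG, above -3.93 and -3.22 in H2O, a log2 fold change of 1.10 (SE 0.21, adjusted p = 2.18e-05). PRKAB1 was at -3.35 and -3.07, above -3.82 and -4.10, which gave 0.75 (SE 0.19, adjusted p = 0.0014). PRKAB2 was at -5.09 and -5.11 against -5.30 and -5.34, a difference of 0.22 (adjusted p = 0.3). Of the panel, 52.5% was called against H2O and 4.92% against the mean of the 8 other vehicles.

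Relative to those 8 vehicles, 2-DG gave -0.23 for C12orf5 (95% interval -0.55 to 0.08), -0.15 for PRKAB1 (-0.44 to 0.14) and 0.02 for PRKAB2 (-0.25 to 0.29), and none was called. Taken one at a time, the 8 vehicles gave C12orf5 values from -0.78 to 0.11, with a lower call against MeOH (for MMS) (adjusted p = 0.00429). For PRKAB1 the values ran from -0.48 to 0.09 with no call, and for PRKAB2 from -0.38 to 0.77 with a higher call against H2O (for NaAsO2) (adjusted p = 0.0012). The second water control placed C12orf5 and PRKAB1 at 0.02 and 0.02, with both 95% intervals spanning 0. The 2-DG levels of C12orf5 and PRKAB1 were within the range of the other vehicles.

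**Figure D3:**
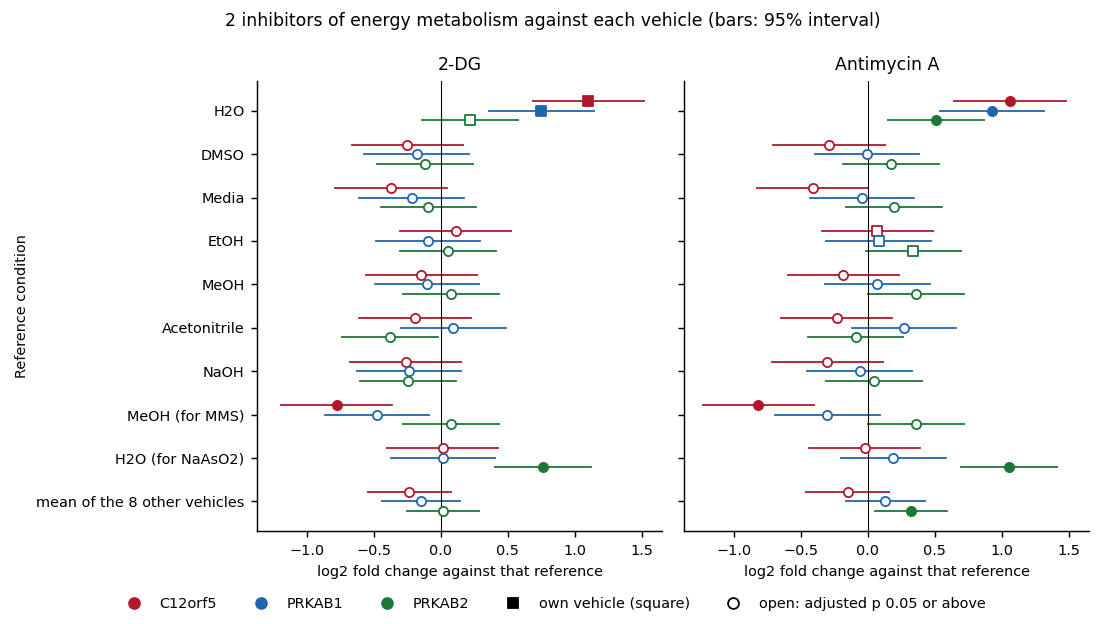
log2 fold change of 2-DG (left) and antimycin A (right) for C12orf5, PRKAB1 and PRKAB2 against each of the 9 vehicle conditions and the mean of the 8 that were not their own, with 95% intervals, squares for the own vehicle and open symbols where the adjusted p was 0.05 or above. For both agents C12orf5 and PRKAB1 are called higher only against the H2O vehicle (2-DG 1.10 and 0.75, antimycin A 1.06 and 0.93).

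Antimycin A, an inhibitor of complex III of the respiratory chain, was not called for any of the 3 genes against its EtOH vehicle. C12orf5 was at -2.42 and -2.61 against -2.71 and -2.46 in EtOH, and PRKAB1 at -3.26 and -2.81 against -3.11 and -3.12, so both overlapped with their control. PRKAB2 was at -4.84 and -4.79 against -5.18 and -5.13, without overlap. The log2 fold changes were 0.07 (adjusted p = 0.823), 0.08 (adjusted p = 0.798) and 0.34 (adjusted p = 0.151), with 24.6% of the panel called. Relative to the mean of the 8 other vehicles, with 55.7% of the panel called, they were -0.15 (adjusted p = 0.422), 0.13 (adjusted p = 0.45) and 0.32 (adjusted p = 0.036). The PRKAB2 call was lost without antimycin A replicate 1 (0.35) or replicate 2 (0.30). Singly, PRKAB2 was called higher against H2O (0.51) and H2O (for NaAsO2) (1.05) only. Set against H2O, the vehicle of 2-DG, antimycin A gave 1.06 for C12orf5 and 0.93 for PRKAB1 (adjusted p = 5.85e-05 and 0.000149), close in size to the 2-DG values there.

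Over all treatments, the mean of the 8 other vehicles gave higher calls in 31.3% and lower calls in 16.3% of 1769 tests. In the DDI class C12orf5 was then higher in 11 of 14 treatments and lower in 1, PRKAB1 higher in 12 and PRKAB2 higher in 10 and lower in 1. In the non-DDI class the higher calls were 6, 2 and 6 of 15. The medians over DDI treatments were 1.08, 1.17 and 0.75. The gain in the non-DDI class for PRKAB2 came from apicidin, oxamflatin, antimycin A and thapsigargin, with log2 fold changes from 0.32 to 0.58, and the class difference of PRKAB2 was no longer called.

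Of the 4 inhibitors of histone deacetylases, which raise histone acetylation, 3 were called for C12orf5 against the own vehicle and none for the AMPK genes. Apicidin placed C12orf5 at -1.57 and -1.57, above -2.40 and -2.05 in DMSO (0.66, adjusted p = 0.0067), and oxamflatin at -1.44 and -1.45 (0.78, adjusted p = 0.00155). HC toxin placed it at -1.71 and -1.47, above -2.60 and -2.07 in MeOH (0.74, adjusted p = 0.0031). Trichostatin A was at -1.98 and -2.19, overlapping with DMSO (0.14, adjusted p = 0.994). The doses differed, so the agents are not compared with each other. PRKAB1 lay between -0.26 and 0.00 in these 4 treatments and PRKAB2 between 0.09 and 0.40, with the highest PRKAB2 value under oxamflatin (adjusted p = 0.0667). Against the 8 other vehicles PRKAB2 was called higher with apicidin (0.40, adjusted p = 0.0104) and oxamflatin (0.58, adjusted p = 0.000242), and PRKAB1 with none of the 4. Against the own vehicles the share of the panel called was 44.3% with apicidin, 41% with oxamflatin, 41% with HC toxin and 1.64% with trichostatin A. Without vehicle replicate 1 none of the called values of C12orf5 held (apicidin 0.48, oxamflatin 0.61, HC toxin 0.48), nor did HC toxin without treated replicate 2 (0.62), whereas against the 8 other vehicles they were 0.84, 0.97 and 0.81, all called.

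Ethanol at 2% raised PRKAB2 and at 4% PRKAB1. PRKAB2 was at -4.18 and -3.74 with 2% ethanol, at -5.21 and -4.90 with 4% and at -5.19 and -4.83 in medium. The 2% value was 1.05 above medium (SE 0.18, adjusted p = 5.47e-06), next to the highest PRKAB2 levels of the series, and the 4% value was -0.05 (adjusted p = 0.872). Set against each other, 4% was below 2% by -1.10 for PRKAB2 (SE 0.18, adjusted p = 7.16e-06), with -0.38 for C12orf5 (adjusted p = 0.174) and 0.28 for PRKAB1 (adjusted p = 0.279), and 27.9% of the panel called. PRKAB1 was at -2.49 and -2.32 with 4% ethanol, above -3.16 and -2.83 in medium (0.59, adjusted p = 0.016), and 0.31 with 2% (adjusted p = 0.265). C12orf5 overlapped with medium at both concentrations. The panel share called was 36.1% at 2% and 32.8% at 4%. Against the 8 other vehicles all 3 genes were called higher with 2% ethanol, C12orf5 by 0.50 (adjusted p = 0.00568), PRKAB1 by 0.50 (adjusted p = 0.00414) and PRKAB2 by 1.20 (adjusted p = 8.41e-10). At 4% they were 0.13, 0.78 and 0.10, with PRKAB1 alone called (adjusted p = 2.3e-05). The PRKAB1 call was lost without treated replicate 2 (0.51) or medium replicate 1 (0.42).

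Tunicamycin, which blocks N-glycosylation, and thapsigargin, which empties calcium stores of the endoplasmic reticulum, are both known to stress that organelle. Tunicamycin placed PRKAB2 at -4.67 and -4.64, above -5.18 and -5.13 in EtOH (0.50, adjusted p = 0.027), with 27.9% of the panel called. Thapsigargin placed C12orf5 at -2.88 and -2.90, below -2.29 and -2.28 in acetonitrile (-0.61, adjusted p = 0.0142), with 47.5% called. Leaving out any of the 4 samples ended the tunicamycin call of PRKAB2 (0.48 to 0.53) and, likewise, the thapsigargin call of C12orf5 (-0.62 to -0.60). Relative to the 8 other vehicles they were 0.49 and -0.49, both called. PRKAB2 was called higher in both treatments on that scale, by 0.49 with tunicamycin (adjusted p = 0.00296) and 0.51 with thapsigargin (adjusted p = 0.00145). Against its own acetonitrile vehicle, which had the highest PRKAB2 level of the vehicles, thapsigargin gave 0.04 for PRKAB2 (limma adjusted p = 0.825), with overlapping replicates. The PRKAB2 Cq values of that vehicle equal those of EtOH, and the part of this in the value was not tested.

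The tubulin-binding agents and heat shock were not called for any of the 3 genes. C12orf5 was at 0.29 with docetaxel, 0.28 with paclitaxel, -0.24 with vinblastine and 0.37 with colchicine. PRKAB1 stayed between -0.08 and -0.03 in these 4 treatments and PRKAB2 between -0.15 and 0.02. Heat shock gave -0.33, 0.04 and -0.32 for C12orf5, PRKAB1 and PRKAB2, with PRKAB2 below both medium replicates (-5.30 and -5.36 against -5.19 and -4.83). The panel shares called were 6.56% with paclitaxel, 18% with vinblastine, 18% with colchicine and 3.28% with heat shock. With docetaxel limma called 0 of 61 genes (0%), and 5 had an unadjusted p under 0.05. Against the 8 other vehicles C12orf5 was called higher with docetaxel (0.47) and paclitaxel (0.46).

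PRKAB1 and PRKAB2 code for alternative subunits at the same place of the kinase. Their ratio was tested directly with PRKAB2 as the reference for each sample, which leaves HPRT and GUSB out. In the acetonitrile vehicle the PRKAB2 Cq equals that of EtOH in each replicate, while the PRKAB1 Cq does not (27.31 and 26.78 against 26.43 and 26.42). PRKAB1 rose relative to PRKAB2 in 8 of 14 DDI treatments and in 2 of 15 non-DDI treatments, and fell in 1 non-DDI treatment. Over all 29 treatments this made 10 higher calls and 1 lower call. Across all genes relative to PRKAB2, 39% of tests were called in either direction, so the number of calls of PRKAB1 was near that of a panel gene in general. Cadmium gave 1.69 (SE 0.22, adjusted p = 2.47e-08), with PRKAB1 higher and PRKAB2 lower. MMS gave 1.61 (adjusted p = 3.04e-08), and H2O2, AraC and hydroxyurea gave 1.17, 1.15 and 1.08. Bleomycin (0.93), camptothecin (0.75) and chromate (0.53) were the other DDI treatments called. Of these 8, 6 share the H2O vehicle, in which PRKAB1 was low and PRKAB2 was not called.

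Set against the 8 other vehicles, where 48.9% of tests relative to PRKAB2 were called in either direction, the ratio rose in 9 treatments of the DDI class and 1 of the non-DDI class and fell in 3 of the latter. The share of treatments called was again near that of all tests. MMS then gave 2.12 (SE 0.17, adjusted p = 4.64e-15), above arsenite (1.00) and cadmium (0.99), so the order of the treatments turned on the control. Camptothecin (0.72), H2O2 (0.47), AraC (0.45), cisplatin (0.39), hydroxyurea (0.38) and 5-FU (0.38) were the other higher DDI calls. Chromate (-0.17), 2-DG (-0.17) and bleomycin (0.23) were not called there. Among the non-DDI treatments the ratio was lower with ethanol 2% (-0.71), thapsigargin (-0.71) and oxamflatin (-0.52) and higher with ethanol 4% (0.67). Against its own acetonitrile vehicle the thapsigargin ratio was -0.075 and not called (adjusted p = 0.748), and the part of the repeated Cq values in this was not tested. The comparison with the 8 other vehicles was added after the data were seen.

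**Figure D4:**
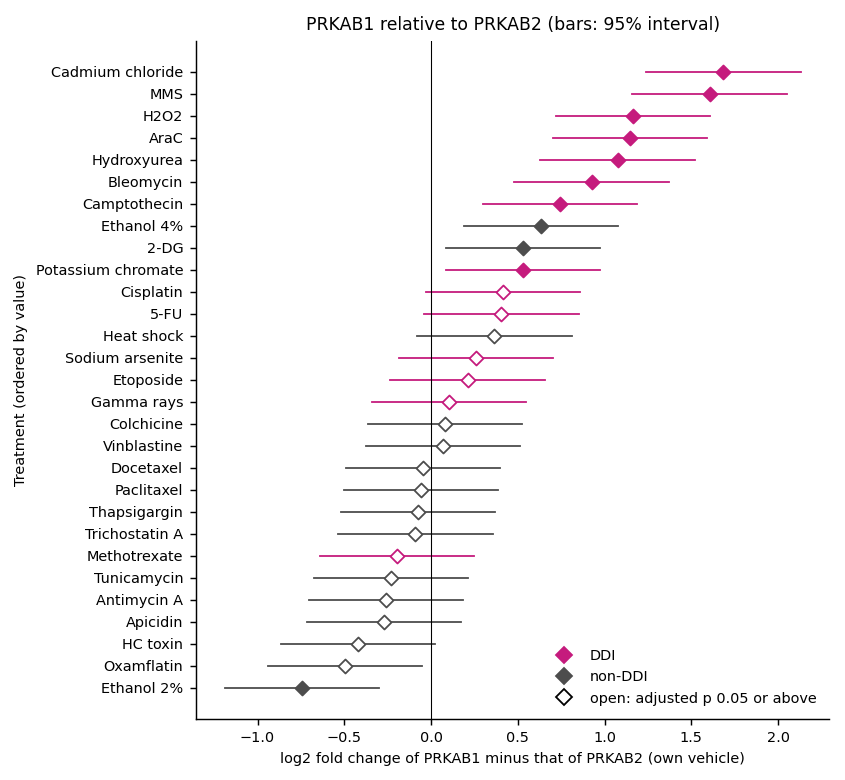
log2 fold change of PRKAB1 minus that of PRKAB2, each treatment against its own vehicle, in order of value, with 95% intervals and open symbols where the adjusted p was 0.05 or above. Cadmium chloride (1.69) and MMS (1.61) have the upper values against the own vehicle, in an order that turns against the 8 other vehicles (0.99 and 2.12), and ethanol 2% (-0.75) is called below 0.

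Ethanol stood on both sides, with PRKAB1 higher relative to PRKAB2 at 4% (0.64, adjusted p = 0.0249) and lower at 2% (-0.75, adjusted p = 0.00265). 2-DG was the other non-DDI treatment called (0.53, adjusted p = 0.0443). For etoposide, gamma rays and sodium arsenite the ratio was 0.21 (95% interval -0.23 to 0.65), 0.11 (-0.34 to 0.55) and 0.26 (-0.18 to 0.70), so these data do not separate both genes there. The class difference of the ratio was 0.79 (SE 0.18, adjusted p = 0.000544), 0.55 without the treatments of the H2O vehicle (adjusted p = 0.0245) and 0.64 against the 8 other vehicles (adjusted p = 0.00437). With the replicate block within a vehicle family, oxamflatin (-0.50, adjusted p = 0.0202) and cisplatin (0.42, adjusted p = 0.0466) were called too. The calls of chromate, 2-DG and ethanol 4% were each lost when any of their 4 samples was left out, over ranges of 0.41 to 0.65, 0.38 to 0.68 and 0.57 to 0.71, and that of camptothecin without treated replicate 2 (0.61).

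C12orf5 and PRKAB1 were both called higher in 13 of 14 DDI treatments, and their ratio was tested directly. It gave 3 higher and 4 lower calls in 29 treatments, a smaller share than that of all tests relative to PRKAB1. With PRKAB1 as reference, where 45.2% of all tests were called, C12orf5 was higher under HC toxin (1.01, adjusted p = 0.00199), oxamflatin (0.88, adjusted p = 0.00673) and apicidin (0.71, adjusted p = 0.0296). It was lower under MMS (-1.09, adjusted p = 0.000365), ethanol 4% (-0.79, adjusted p = 0.0118), cadmium (-0.63, adjusted p = 0.0293) and camptothecin (-0.60, adjusted p = 0.0465). The other 22 treatments were not called, and the class difference was -0.25 (SE 0.19, adjusted p = 0.234). Against the 8 other vehicles, with 54.3% of tests called, these 7 calls held in direction, and H2O2 (-0.81) and sodium arsenite (-0.52) were called lower as well. The share of treatments called for this ratio was again below that of all tests.

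In the order of the 38 condition means, AraC, hydroxyurea and 5-FU had the highest C12orf5 levels (-0.69, -0.74 and -0.87), MMS, AraC and camptothecin the highest PRKAB1 levels (-0.96, -1.15 and -1.35), and AraC, hydroxyurea and ethanol 2% the highest PRKAB2 levels (-3.65, -3.92 and -3.96). The range from the highest to the lowest condition was 2.89 for C12orf5, 3.00 for PRKAB1 and 2.21 for PRKAB2. Neighbours in this order mostly did not differ by more than the 95% interval of a difference (0.41, 0.39 and 0.36), which was passed by 1 of 37 gaps for C12orf5, 2 for PRKAB1 and 1 for PRKAB2. The largest gap of C12orf5 lay between cadmium and the H2O vehicle below it (0.58), that of PRKAB1 between HC toxin and the H2O vehicle (0.59) and that of PRKAB2 between heat shock and cadmium (0.46). Above the highest vehicle lay 9 DDI and 3 non-DDI treatments for C12orf5, 11 and 2 for PRKAB1 and 10 and 4 for PRKAB2.

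Over the 38 condition means, which share vehicles, reference genes and in part Cq values, Pearson's r between C12orf5 and PRKAB1 was 0.785, between C12orf5 and PRKAB2 0.715 and between PRKAB1 and PRKAB2 0.63. The genes most like C12orf5 were RRM2B, a p53-inducible subunit of ribonucleotide reductase (r = 0.905), FBXO22, an F-box protein of a ubiquitin ligase (0.863), and TRIAP1, a p53-regulated inhibitor of apoptosis (0.852). Those most like PRKAB1 were PPM1D, the phosphatase that damps p53 signalling (0.947), PHLDA3, a repressor of Akt signalling (0.906), and BLOC1S2, a subunit of complexes of lysosome biogenesis and positioning (0.892). Those most like PRKAB2 were RRM2B (0.825), SMAD5, a transducer of bone morphogenetic protein signals (0.815), and GXYLT1, a xylosyltransferase acting on Notch (0.814). Without the H2O vehicle and its treatments (n = 30 conditions), r between PRKAB1 and PRKAB2 was 0.473 and that between PRKAB1 and PPM1D 0.942. These correlations are descriptions.

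A list of 17 other p53 targets on the panel gives the setting of these genes: AEN, BTG2, CDKN1A, DDB2, E2F7, EI24, FBXO22, GADD45A, MDM2, PHLDA3, PLK3, PPM1D, RPS27L, RRM2B, TP53I3, TRIAP1 and TRIM22. In the DDI treatments a median of 15 of the 17 were called higher (range 0 to 17, 78.2% of 238 tests, against 46.5% over the panel), and the median of the list's median log2 fold change was 1.04, against 0.49 for the panel. In the non-DDI treatments a median of 1 of 17 was higher (range 0 to 10, 10.6% of 255 tests, against 14.2% over the panel), with a median of -0.07, against -0.02 for the panel. With methotrexate the list had 0 of 17 called in limma, as had the 3 metabolic genes, and 14 of the 61 panel genes had an unadjusted p under 0.05. With 2-DG 10 of 17 were called higher and 2 lower against H2O, with 22 of 61 panel genes higher. That was the most higher calls of the list among the non-DDI treatments. With chromate and cadmium 9 of 17 were higher and 2 lower in each, with 24 and 14 of 61 panel genes higher. GADD45A was called lower with chromate (-1.60), cadmium (-0.68) and 2-DG (-2.00). CDKN1A was called lower with chromate (-0.74) and 2-DG (-0.53) and higher with cadmium (0.61). The list calls with these 3 agents are against the H2O vehicle alone, which differed from the other vehicles in 70.5% of the panel genes. Against those vehicles 4.92% of the panel was called with 2-DG, and list values against them are not given here. Lower calls of the list reached at most 2 of 17 in a DDI treatment and 5 of 17 in a non-DDI treatment. CDKN1A and GADD45A are members of this list and were used in the choice of doses.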

How the data were processed

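The authors ran RT-qPCR on TaqMan plates with 96 wells. Their deposited table holds raw Cq values (quantification cycles, 1 per gene and sample) of 61 panel genes, HPRT and GUSB in 76 samples of TK6 cells. The authors left out 3 genes with Cq above 40 in most samples. A deposited table of the authors' own fold changes was not used. Array wells give no read depth, so the number of samples limits the precision.

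The Cq of each gene was subtracted from the mean Cq of HPRT and GUSB (-ΔCq, log2 scale). limma 3.58.1 in R 4.3.3 was fitted to all 76 samples with 1 coefficient for each of 38 conditions (38 residual degrees of freedom), and treatments were compared with their own vehicle and with the mean of the 8 others. Moderated p-values received the Benjamini-Hochberg adjustment across the 61 genes of each treatment (60 in the ratio fits), with calls at adjusted p under 0.05. Classes were compared with limma on 29 treatment means. Scripts were tested on simulated data. Samples were grouped by their labels.

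By the study's methods the 2 replicates of an agent and its solvent came from separate exposures, so replicate numbers were taken as pairs for an alternative with a replicate block. Differences between replicates of a treatment and of its vehicle correlated over genes with a median r of 0.237 (-0.718 to 0.906), above 0.1 in 19 of 29 treatments. A p-value measures the spread between these replicates only.

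The 3 genes, the p53 list and the alternatives were chosen with earlier results of these data known. Named genes were the 3 members and, for each, the 3 panel genes with the highest Pearson correlation over condition means. Promoters and positions came from RefSeq tables of GRCh38.p14; the files name no build. Plots used Python 3.11.15 with matplotlib 3.10.9.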

Additional observations from a re-analysis of the deposited data

Results flagged for a closer look

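The response of PRKAB2 to ethanol differed between concentrations of the same agent: 4% ethanol was below 2% by -1.10 on the log2 scale (SE 0.18, limma adjusted p = 7.16e-06), in the direct comparison of both treatments. PRKAB2 was 1.05 above medium at 2%, in both replicates, and -0.05 at 4%.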

How the results depend on the processing

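The replicate block within a vehicle family gave 17, 15 and 13 higher calls for C12orf5, PRKAB1 and PRKAB2 (17, 15 and 12 without it), and 13 calls in place of 11 for PRKAB1 minus PRKAB2. The block over all samples changed no call against the own vehicle. Counts of higher calls ranged from 12 to 17 for C12orf5, 12 to 16 for PRKAB1 and 11 to 16 for PRKAB2 over all alternatives. Without treated or vehicle replicates they ranged from 12 to 17 and 14 to 15, with 11 in each case for PRKAB2, and PRKAB1 minus PRKAB2 had 8 calls in each case. The adjustment over 29 treatments, the unmoderated test and leaving out genes with a mean Cq above 30 changed no call of the 3 genes against the own vehicle, though the unmoderated test ended the chromate call of PRKAB1 minus PRKAB2 (adjusted p = 0.0512). That ratio had 13 calls against the 8 other vehicles.

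Against the mean of all 9 and of the 8 other vehicles, C12orf5 changed sign in cadmium and was called lower (-0.60 and -0.75). The calls of C12orf5 in 2-DG (-0.086 and -0.23) and of PRKAB1 in chromate (-0.048 and -0.15) and 2-DG (-0.051 and -0.15) were lost, at values below 0. PRKAB2 with antimycin A became called (0.33 and 0.32), and the class difference of PRKAB2 was lost against the 8 others (0.36, adjusted p = 0.0641). With the panel median as reference, which itself carries the class difference, PRKAB2 changed sign in chromate (-0.45) and bleomycin (-0.13). On that scale the class difference of PRKAB2 was 0.032, and PRKAB1 with 2-DG was 0.33, no longer called. Against the other vehicles, PRKAB2 with antimycin A was lost with GUSB alone (0.22) and without either treated replicate (0.30 to 0.35), and C12orf5 with antimycin A was called lower (-0.37, adjusted p = 0.0466) when the acetonitrile, MeOH, EtOH and H2O vehicles were left out. The cause was not tested.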
